A study of Homo sapiens with 12 samples.

Results

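TRIM genes encode tripartite motif proteins, and their transcripts were examined in macrophages of THP-1, a human leukaemia line of monocytic origin, after stimulation with lipopolysaccharide (LPS). Genes annotated as protein-coding and named TRIM with a number were taken from the deposited count table, read-through names left out, and those averaging at least 10 counts over the 12 libraries were kept. This gave 45 members out of 76 such TRIM genes and 58735 genes in all. Of the libraries, 6 came from cells transfected with a miR-122-5p mimic and the 6 others from cells transfected with a control microRNA mimic, each at 30 nM for 24 h, and both groups were then rested and exposed to LPS for 4 h. No cells without LPS or without a mimic were used here. Whether each library of a group had its own culture is not stated in the labels. The p-values therefore cover the spread among these 12 libraries alone, and that spread may be technical. In a bulk sample, fewer expressing cells and less RNA per cell cannot be told apart.

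Most TRIM proteins carry a ring finger that gives E3 ubiquitin ligase activity, followed by B-boxes and a coiled coil, and they differ in their C-terminal region. Many are induced by interferon and either block viruses directly, as TRIM5 and TRIM22 do, or attach ubiquitin to sensors and adaptors of innate immunity, as TRIM25 does to RIG-I. Others act on chromatin, such as TRIM28, the corepressor of KRAB zinc finger proteins, or on the cytoskeleton and muscle, such as TRIM54.

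Library totals ran from 29473750 to 35684464 counts in miR-122-5p libraries and from 31019890 to 39468157 counts in control libraries. Control library 6 stood apart on the second principal component and control library 1 on the third. Of 8 macrophage markers, 7 passed the low-count filter. Of these 7, 4 were lower with miR-122-5p (57.1%, against 26.2% of all tested genes) and 2 higher (28.6%, against 24.3%). CD68 had 92 reads in all, and 85.8% of its exon length overlaps other annotated genes. The summed level of the 8 ran from 2176 to 2696 CPM (counts scaled to library size) in miR-122-5p libraries and from 2220 to 2509 CPM with the control mimic. Of 7 markers of other cell types 3 were tested (adjusted p 0.273 to 0.463), CD3E and EPCAM had 0 reads, and the endothelial adhesion gene PECAM1, which myeloid cells also express, made up most of the summed 240.02 to 281.09 CPM with miR-122-5p and 236.91 to 255.19 CPM with the control mimic. The groups also differed in how counts followed transcript GC content. For each library, the log2 CPM of a gene was taken as its deviation from the gene's mean over the 12 libraries. The slope of these deviations per 10 percentage points averaged 0.146 ± 0.0658 in miR-122-5p libraries and -0.146 ± 0.124 in control libraries (SD, n = 6 each). These means mirror each other by construction, so only the difference between the groups is informative. Slopes ran from 0.0336 to 0.2286 with miR-122-5p and from -0.3178 to 0.0119 with the control mimic. As they did not overlap, a fit with the slope as a covariate cannot fully separate the slope from the mimic. The part of GC content in the differences was not tested beyond the corrected values given beside them.

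The letters shown first are those of the transfected microRNA and of the interferon response motif found in TRIM promoters. The mature miR-122-5p, from RefSeq on GRCh38.p14, is encoded at chr18:58451088-58451109 and carries its seed (bases 2 to 8) in capitals.
miR-122-5p: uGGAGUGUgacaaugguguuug
The interferon-stimulated response element (ISRE), a promoter element through which type I interferons induce genes, was searched as its core, the letters GAAA followed by any 2 bases and GAAA again, on both strands. The search covered RefSeq promoter windows (GRCh38.p14), which run from 250 bases before the annotated start of a gene to 50 after it. Of the 45 members 33 had such a window, and 8 of these held the core (24.2%, against 4.38% of 27305 genes with a window). Those 8 were TRIM2, TRIM5, TRIM14, TRIM16, TRIM21, TRIM26, TRIM44 and TRIM69.

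Of the 13 members that fell with miR-122-5p and had a window, 6 held the core, as did 1 of 5 that rose (TRIM2) and 1 of 15 that were not called (TRIM16). How all genes with the core divided by call was not examined, so this split has no background and a link to the falls was not tested. The match read GAAAAGGAAA in TRIM2 and GAAATAGAAA in TRIM16. The 6 members that fell are shown in the direction of transcription with the core in capitals, written as TTTC where the match lies on the other strand.
TRIM5 (chr11:5685072-5685121, minus strand): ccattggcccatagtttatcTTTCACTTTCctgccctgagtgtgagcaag
TRIM21 (chr11:4393656-4393705, minus strand): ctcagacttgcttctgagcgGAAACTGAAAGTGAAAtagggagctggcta
TRIM26 (chr6:30213565-30213614, minus strand): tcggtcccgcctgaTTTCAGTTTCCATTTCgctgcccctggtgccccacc
TRIM14 (chr9:98119219-98119268, minus strand): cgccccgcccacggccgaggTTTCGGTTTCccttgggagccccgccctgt
TRIM69 (chr15:44736446-44736495, plus strand): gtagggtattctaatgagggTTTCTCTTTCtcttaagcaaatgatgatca
TRIM44 (chr11:35662720-35662769, plus strand): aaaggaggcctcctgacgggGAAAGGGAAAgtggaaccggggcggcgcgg
TRIM21 and TRIM26 each carried 2 overlapping matches. In TRIM5 and TRIM14 the match began 27 and 26 bases before the annotated start, and in TRIM21 it lay just after it. The remaining members that fell and had a window, TRIM25, TRIM31, TRIM33, TRIM36, TRIM38, TRIM56 and TRIM58, held no match in these windows, which says nothing of sites elsewhere. TRIM4, TRIM13, TRIM22, TRIM24 and TRIM27 also fell but had no window, so their promoters were not searched. The STAT element TTCNNNGAA (a palindrome in its fixed letters) was in the windows of 5 members, TRIM2, TRIM3, TRIM7, TRIM16 and TRIM46, or 15.2% against 9.38% of all genes with a window, and 0 of those 5 fell. A match is a run of letters and was not tested as a binding site.

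The first question was how the family differed between the miR-122-5p and control mimic cells. At an adjusted p under 0.05 (edgeR quasi-likelihood test, Benjamini-Hochberg adjustment over all 15471 tested genes), 18 TRIM genes were lower with miR-122-5p, 7 were higher and 19 were not called; TRIM45 was not tested in this fit because of its low counts. Calls were common in this comparison, 50.5% of all tested genes, so the family's 56.8% is near the background. In direction, 40.9% of tested TRIM genes were lower, against 26.2% of all tested genes, and 15.9% were higher, against 24.3%. The median log2 fold change (miR-122-5p over control mimic, as all fold changes here) was -0.12 for the family and 0.01 for all genes. At a 2-fold change or more, 3 TRIM genes were lower (TRIM31, TRIM22 and TRIM5; 5.55% of all tested genes were) and 1 was higher (TRIM54; 3.79% of all tested genes were). The values of the groups did not overlap for 13 TRIM genes that were lower (29.5%, against 16.1% of all tested genes) and 4 that were higher (9.09%, against 13.4%).

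**Figure D1:**
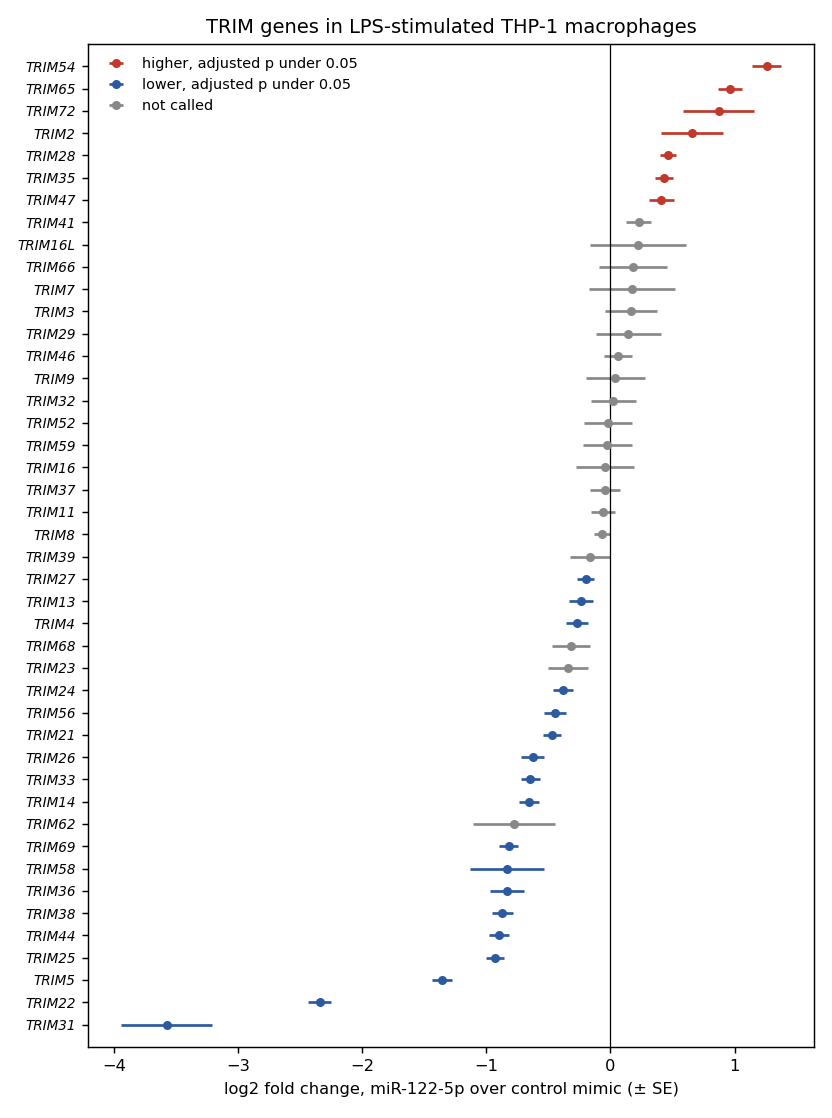
Log2 fold change (miR-122-5p over control mimic) with its standard error for the 44 tested TRIM genes, ordered by size. TRIM31, TRIM22 and TRIM5 lie beyond a halving on the left, at -3.57, -2.34 and -1.36, and TRIM54 alone lies beyond a doubling on the right, at 1.26.

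Retroviral restriction factors showed the largest falls among abundant members. TRIM22, an interferon-induced ubiquitin ligase that restricts several viruses (chromosome 11, 5689689 to 5737089, hg38), had 64.95, 79.0 and 95.6 CPM in miR-122-5p libraries (lowest, median and highest of 6), against 383, 401.5 and 448 CPM in control libraries. Every miR-122-5p library was therefore far under every control library, and the log2 fold change was -2.34 ± 0.09 (SE; adjusted p = 1.66e-14). TRIM5, the cytosolic sensor that recognises incoming retroviral capsids (chromosome 11, 5663557 to 5938619), had 37.3, 42.65 and 47.7 CPM with miR-122-5p, against 96.3, 108.7 and 120.7 CPM with the control mimic. Its groups did not overlap either, with a change of -1.36 ± 0.08 (adjusted p = 1.28e-11). The related neighbours TRIM6 and TRIM34 averaged 2.50 and 2.25 counts per library and are not members; 29.3% and 83.0% of their exon lengths are shared with the read-through gene TRIM6-TRIM34, which had 0 reads, so their low counts are uncertain.

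TRIM31 fell furthest. This ligase, known to act on the adaptor MAVS and on the inflammasome protein NLRP3 (chromosome 6, 30102897 to 30113106), had 0, 5, 10, 13, 14 and 18 reads in the miR-122-5p libraries, against 73, 106, 106, 131, 133 and 177 in control libraries. In CPM it averaged 0.290 ± 0.191 in miR-122-5p libraries and 3.53 ± 0.845 in control libraries (SD, n = 6 each), and the fitted change was -3.57 ± 0.37 (adjusted p = 5.99e-08). The fall is clear in every library, but its size is loosely set at so few reads, and the gene passed the low-count filter through the control group: only 3 of 6 miR-122-5p libraries reached it. Its antisense gene TRIM31-AS1 had 15 reads in all.

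TRIM25, which attaches ubiquitin to RIG-I (chromosome 17, 56836387 to 56914080), had 108.4, 119.2 and 141.1 CPM with miR-122-5p, against 222.6, 233 and 247.3 CPM with the control mimic. The groups lay far apart and the change was -0.93 ± 0.07 (adjusted p = 5.03e-10). TRIM14, a mitochondrial adaptor of MAVS signalling without a ring finger, had 45.7, 47.5 and 52.4 CPM with miR-122-5p, against 64.8, 76.2 and 87.15 CPM with the control mimic, again without overlap (-0.66 ± 0.08, adjusted p = 5.21e-07).

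TRIM56, a ligase reported to act on STING and cGAS, had 58.5, 65.8 and 78.22 CPM with miR-122-5p, against 78.18, 91.15 and 104.7 CPM with the control mimic. Its highest miR-122-5p library just reached the lowest control library, and its change was -0.45 ± 0.09 (adjusted p = 0.000198). TRIM44, which has no ring finger and is reported to stabilise MAVS, had 15.2, 16.9 and 19.9 CPM with miR-122-5p, against 29.4, 32.3 and 34.3 CPM with the control mimic (-0.90 ± 0.08, adjusted p = 1.18e-08). TRIM4, another ligase of RIG-I, changed by -0.27 ± 0.09 (adjusted p = 0.0148), a smaller fall with overlapping groups. That call ended after removal of each library's trends with GC content and transcript length (-0.14, adjusted p = 0.172), with the GC slope as a covariate (-0.16, adjusted p = 0.536) and without control libraries 1 and 6 together (-0.23, adjusted p = 0.0530). TRIM56 was lower by more with the GC slope covariate (-0.75).

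TRIM65 is the ligase of the RNA sensor MDA5 (encoded by IFIH1). TRIM65 had 17.1, 19.1 and 22.8 CPM with miR-122-5p, against 8.42, 10.15 and 11.5 CPM with the control mimic, and rose by 0.96 ± 0.10 on the log2 scale (adjusted p = 5.67e-08). Every miR-122-5p library was above every control library. IFIH1 itself moved the other way, with 142 ± 21.5 CPM in miR-122-5p libraries and 434 ± 35.8 CPM in control libraries (SD, n = 6 each; -1.61 ± 0.09, SE). The gene for RIG-I, DDX58, fell together with TRIM25, by 1.74 ± 0.10 on the log2 scale.

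**Figure D2:**
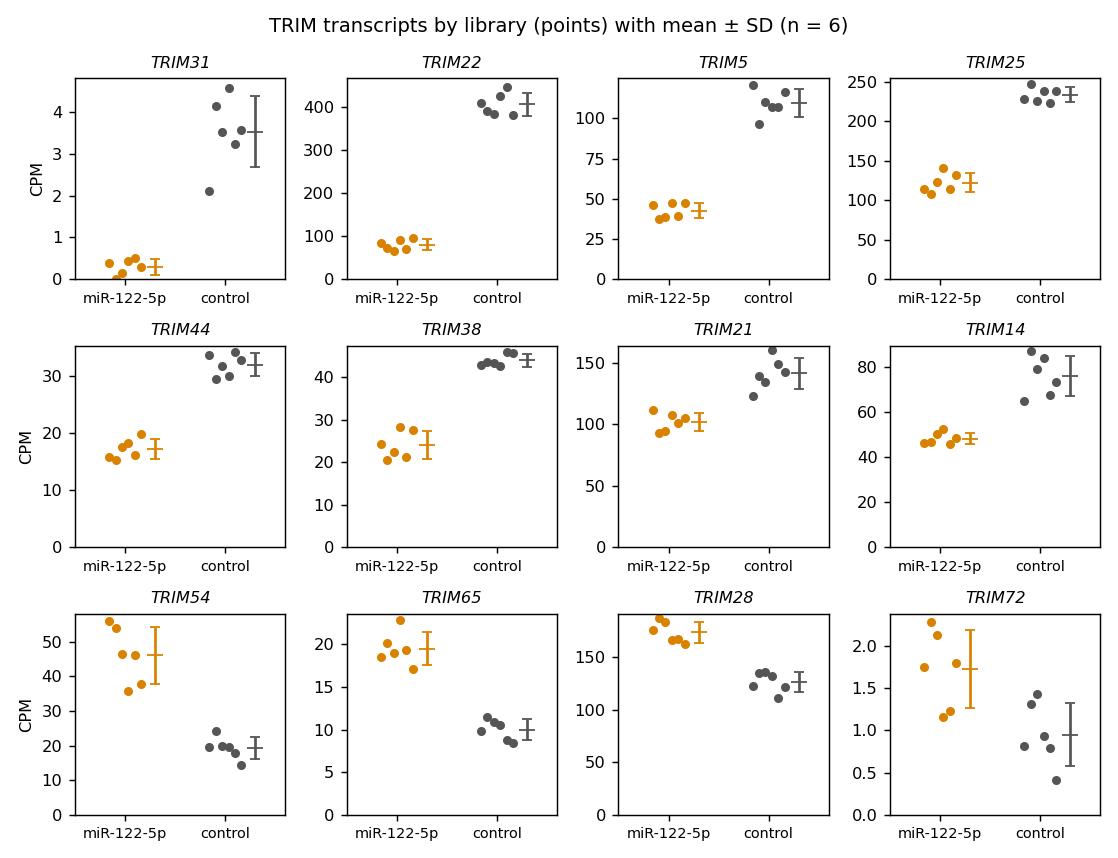
CPM of 12 TRIM transcripts in each library (points), with mean ± SD beside them, miR-122-5p in orange and control mimic in grey. For TRIM22 the miR-122-5p libraries sit between 64.95 and 95.6 CPM and the control libraries between 383 and 448 CPM, whereas the groups of TRIM72 overlap.

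TRIM21, the cytosolic antibody receptor that also acts on interferon regulatory factors (chromosome 11, 4384897 to 4393696), had 92.5, 102.9 and 111.1 CPM with miR-122-5p, against 123.1, 140.6 and 159.9 CPM with the control mimic. Its groups did not overlap, with a change of -0.47 ± 0.07 (adjusted p = 1.20e-05). TRIM38, which lowers signalling through TAB2, TAB3 and TRIF, had 20.4, 23.3 and 28.2 CPM with miR-122-5p, against 42.5, 43.4 and 45.97 CPM with the control mimic. This was a deeper fall, of -0.87 ± 0.08 (adjusted p = 2.44e-08), without overlap.

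TRIM27, a repressor of IkB kinases, had 41.1, 45.35 and 48.9 CPM with miR-122-5p, against 46.85, 50.96 and 55.4 CPM with the control mimic, so its libraries overlapped and the change was small (-0.20 ± 0.07, adjusted p = 0.0197). That call ended under both GC treatments (-0.05, adjusted p = 0.509, and -0.13, adjusted p = 0.484), without miR-122-5p library 1 (-0.17, adjusted p = 0.0520), without control libraries 1 and 6 together (-0.15, adjusted p = 0.0923), with library totals in place of TMM scaling (-0.16, adjusted p = 0.0866) and with no low-count filter (-0.18, adjusted p = 0.102). TRIM26, a ligase reported to act on IRF3, changed by -0.63 ± 0.09, and TRIM69, reported as an interferon-induced antiviral ligase, by -0.82 ± 0.08, both without overlap; TRIM69 was at -0.54 and -0.53 under the 2 GC treatments, called under each. TRIM8, a ligase of TAK1, was not called (-0.07 ± 0.06, adjusted p = 0.391), but was lower once GC and length trends were removed (-0.38, adjusted p = 4.41e-05).

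The chromatin-associated members split. TRIM28 (chromosome 19, 58544091 to 58550722) had 162.6, 171.4 and 186.9 CPM with miR-122-5p, against 110.9, 126.7 and 135.2 CPM with the control mimic, and rose by 0.46 ± 0.07 (adjusted p = 6.17e-06). No control library reached a miR-122-5p library. The rise was not called under either GC treatment: it was 0.04 (adjusted p = 0.600) after removal of GC and length trends and 0.26 (adjusted p = 0.0686) with the GC slope as a covariate. Its relatives TRIM33, a regulator of SMAD4, and TRIM24, a coregulator of nuclear receptors, were lower, at -0.65 ± 0.08 for TRIM33 and -0.38 ± 0.08 for TRIM24. TRIM33 was lower under both GC treatments as well, at -0.32 and -0.55, whereas TRIM24 was at -0.13 (adjusted p = 0.0992) and -0.10 (adjusted p = 0.641). TRIM66, the germ cell member of this group, was not called at 0.18 ± 0.27.

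TRIM54, a microtubule-associated ligase known from striated muscle (chromosome 2, 27282392 to 27307439), had 35.9, 46.4 and 55.95 CPM with miR-122-5p, against 14.5, 19.6 and 24.2 CPM with the control mimic. The groups did not overlap, and the change of 1.26 ± 0.12 (adjusted p = 1.86e-08) was the largest rise of the family in this fit; its value was 0.98 with GC and length trends removed and 0.79 with the covariate, called under each. The antisense neighbour UCN overlaps 1.45% of its exon length. Its muscle relative TRIM63 averaged 7.75 counts and TRIM55 8.58, both under the minimum for members.

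TRIM72, a membrane repair protein of muscle, had 1.16, 1.78 and 2.29 CPM with miR-122-5p, against 0.410, 0.870 and 1.43 CPM with the control mimic. These low values overlapped (0.87 ± 0.29, adjusted p = 0.0154), and it was no longer called with the covariate (0.15, adjusted p = 0.879) or without control libraries 1 and 6 together (0.64, adjusted p = 0.0593). TRIM2, a ligase with NHL repeats known from neurons, had 2.05, 2.62 and 4.04 CPM with miR-122-5p, against 1.20, 1.39 and 3.44 CPM with the control mimic. Here 1 control library, number 6, was far above the other 5, and the call (0.66 ± 0.25, adjusted p = 0.0350) ended without any one of miR-122-5p libraries 1, 2 and 3 or control libraries 1, 3, 4 and 5 (adjusted p 0.0572 to 0.101). TRIM36, linked to microtubules, was lower at -0.84 ± 0.14, and without overlap. Its value was -0.52 with GC and length trends removed, still called, and -0.20 with the covariate, not called (adjusted p = 0.562). TRIM2 was also not called with the covariate (0.64, adjusted p = 0.455).

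The remaining rises were TRIM35 (0.43 ± 0.08, no overlap), a ligase reported to bind pyruvate kinase M2, and TRIM47 (0.41 ± 0.10). With the GC slope covariate neither was called (TRIM35 0.15, adjusted p = 0.385; TRIM47 0.36, adjusted p = 0.222). TRIM47 is uncertain, since 51.5% of its exon length overlaps an antisense gene, and its value turned to -0.15 (adjusted p = 0.333) with GC and length trends removed. The remaining falls were TRIM58, known from red cell maturation, at -0.83 ± 0.30 (adjusted p = 0.0247), and TRIM13, a ligase of the endoplasmic reticulum, at -0.24 ± 0.10 (adjusted p = 0.0491). Both had overlapping groups, and neither was called without control libraries 1 and 6 together (TRIM58 -0.48, adjusted p = 0.214; TRIM13 adjusted p = 0.372). TRIM58 was no longer called when miR-122-5p library 4 or 5, or control library 1, 5 or 6, was left out (adjusted p 0.0523 to 0.0664), nor with limma-voom (-0.77, adjusted p = 0.0518) or the replicate block (adjusted p = 0.0553). TRIM13 was no longer called without any of the miR-122-5p libraries 1 to 5 or control libraries 1, 4 and 6 (adjusted p 0.0566 to 0.167), and without control library 1 its change was -0.13. Both were above 0 and not called with the covariate (TRIM58 0.16, TRIM13 0.23), and TRIM13 also with GC and length trends removed (0.09). TRIM13 was not called either with DESeq2, limma-voom, the other scalings or the other low-count filters (adjusted p 0.0524 to 0.111).

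TRIM45, the member left untested, had 0.169, 0.666 and 0.738 CPM with miR-122-5p, against 0.0547, 0.149 and 0.266 CPM with the control mimic. With no low-count filter its change was 1.88 ± 0.59 (adjusted p = 0.00754), at 2 to 27 reads a library. TRIM45 is a member through the miR-122-5p libraries, which had 6 to 27 reads, against 2 to 8 in control libraries. The low-count filter was reached in 5 miR-122-5p libraries and 0 control libraries, so the size of this change is loosely set. The 18 members that were neither called nor TRIM8 ranged from TRIM62 at -0.78 ± 0.33 (adjusted p = 0.0568) to TRIM41 at 0.23 ± 0.10 (adjusted p = 0.0660). Leaving out 1 library brought a call for TRIM62 (without control library 1, -0.96, adjusted p = 0.00843), TRIM23 (without control library 3, -0.43, adjusted p = 0.0217), TRIM68 (without miR-122-5p library 4, -0.40, adjusted p = 0.0342) and TRIM41 (leaving out miR-122-5p library 6, or control library 2 or 5, 0.26 to 0.27). Other settings brought calls too: TRIM11 was lower with the GC slope covariate (-0.53, adjusted p = 0.00170, against -0.06 without it). TRIM62 was lower with that covariate (-1.82, adjusted p = 0.0366), with GC and length trends removed (adjusted p = 0.0129), without control libraries 1 and 6 together (-1.07, adjusted p = 0.00402), with DESeq2 (adjusted p = 0.0423) and with the filter at 1 CPM (adjusted p = 0.0447). TRIM41 was higher with GC and length trends removed (0.34, adjusted p = 0.00605), with library totals and with no low-count filter (adjusted p = 0.0301 each) and with the filter at 1 CPM (adjusted p = 0.0496). TRIM68 was lower without control libraries 1 and 6 together (-0.40, adjusted p = 0.0449). TRIM46 was lower with GC and length trends removed (-0.31, adjusted p = 0.00467). TRIM16 and TRIM16L are near-identical copies, so their counts of 56.8 and 18.7 per library are uncertain.

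Levels between members were compared per length, in TPM (counts divided by the union of annotated exon length and scaled within a library). TRIM21 led in both groups, with 150.4 ± 8.71 TPM in miR-122-5p libraries and 210.1 ± 17.1 TPM in control libraries (SD, n = 6 each). TRIM22 had 38.0 ± 5.48 TPM with miR-122-5p and 194 ± 13.1 TPM with the control mimic. In control libraries its range, 178.9 to 212 TPM, overlapped that of TRIM21, 189.7 to 236 TPM, so these neighbours in the order were not separated. TRIM28 had 122.8 ± 8.58 TPM with miR-122-5p and 89.5 ± 6.06 TPM with the control mimic. With miR-122-5p the order was TRIM21, TRIM28, TRIM54 (37.5 to 55.2 TPM), TRIM22 and TRIM25 (36.8 ± 4.42 TPM), where TRIM21 and TRIM28 overlapped slightly in range (135.3 to 160.4 and 115.2 to 136.1 TPM) and the last 3 overlapped one another. In control libraries it was TRIM21, TRIM22, TRIM28, TRIM25 (70.5 ± 3.08 TPM) and TRIM5 (65.6 ± 6.31 TPM), where TRIM25 and TRIM5 overlapped. In control libraries 24 members averaged at least 5 TPM, and 10 members were under 1 TPM in both groups.

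**Figure D3:**
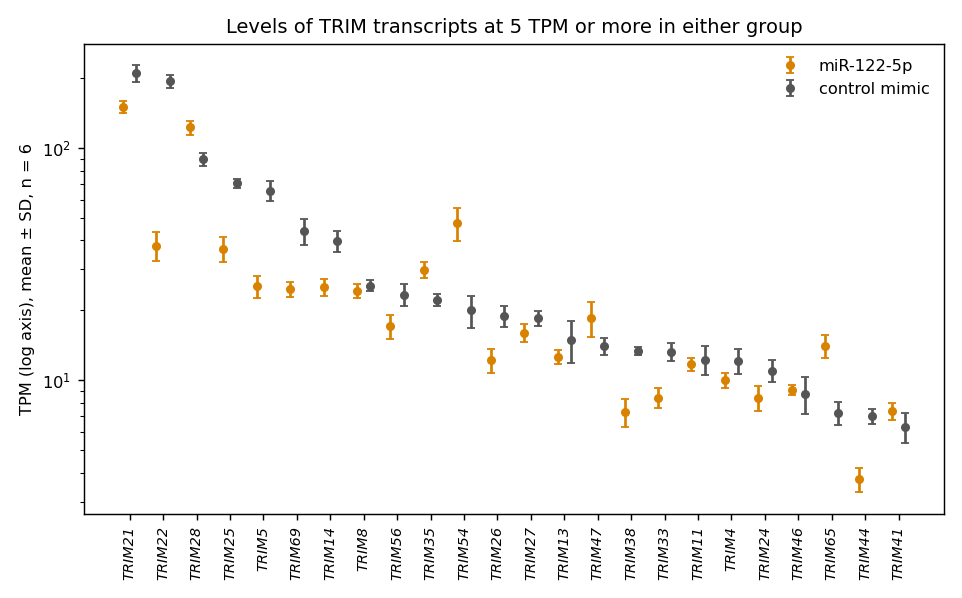
TPM (log axis, mean ± SD, n = 6) of TRIM transcripts with at least 5 TPM in either group, miR-122-5p in orange left of control mimic in grey, ordered by the control level. TRIM22 stands at 38.0 TPM with miR-122-5p and beside TRIM21 with the control mimic, while TRIM54 is higher with miR-122-5p, at 47.4 TPM.

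Summed over the 45 members, TRIM transcripts made up 1273 ± 39.4 CPM in miR-122-5p libraries and 1925 ± 30.0 CPM in control libraries (SD, n = 6 each), ranges that did not overlap. TRIM22 alone held 6.30% of that sum in miR-122-5p libraries and 21.2% in control libraries. Without it the sums were 1193 ± 33.8 CPM with miR-122-5p and 1517 ± 27.7 CPM with the control mimic. The spread between libraries followed the counts: the 18 members averaging at least 1000 counts had a median coefficient of variation of 7.99% in miR-122-5p libraries and 8.29% in control libraries, while the other 27 had 19.8% in miR-122-5p libraries and 23.9% in control libraries.

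Grouped by domains, the 20 tested ring finger members with a PRY-SPRY domain, the C-terminal fold with which TRIM5 and TRIM21 bind their ligands, had 10 lower (50%, against 40.9% of the tested family and 26.2% of all tested genes) and 4 higher (20%, against 15.9% of the family and 24.3% of all genes), with a median log2 fold change of -0.29. Of 4 members with a PHD finger and a bromodomain 2 were lower and 1 higher, and of 5 without a ring finger 2 were lower (TRIM14 and TRIM44). Among 3 tested NHL repeat members 1 was higher and 0 lower. Of 4 ring finger members with no known C-terminal domain 2 were lower, TRIM31 and TRIM56. Of 3 tested members with a COS box and fibronectin repeats, 1 (TRIM36) was lower. The groups are small, and differences between them were not tested.

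**Figure D4:**
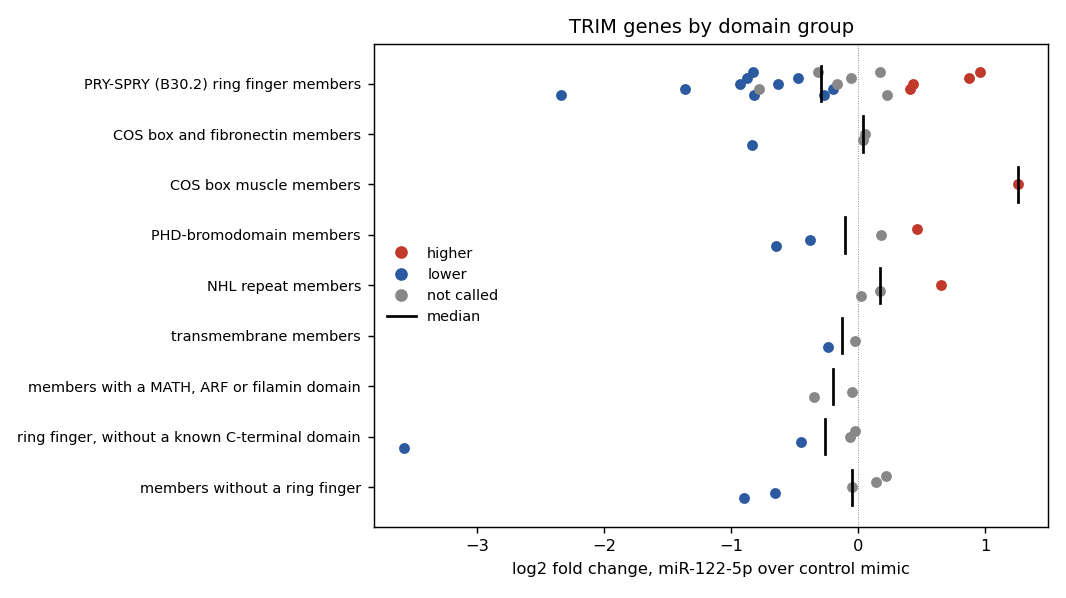
Log2 fold change (miR-122-5p over control mimic) of each tested TRIM gene, by the domains of its protein, with the median of each group as a bar. The PRY-SPRY group, with a median of -0.29, spans TRIM22 at -2.34 to TRIM65 at 0.96.

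TRIM proteins with other gene symbols, from a list of 4, were read beside the members. PML, the organiser of nuclear bodies and also an interferon-induced gene, had 112.5 ± 10.9 CPM in miR-122-5p libraries and 210.8 ± 17.5 CPM in control libraries (SD, n = 6 each) and fell by 0.91 ± 0.08 on the log2 scale (SE; adjusted p = 2.89e-09). MEFV, the gene of pyrin, fell by 0.82 ± 0.12 (adjusted p = 7.14e-06). MID2 was not called (-0.10 ± 0.09), and MID1 had 24 reads in all and was not tested.

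Of 19 tested sensors, adaptors and kinases on which TRIM proteins act, 15 fell (78.9%, against 26.2% of all tested genes). Of the rest 1 rose (5.3%, against 24.3% of all tested genes) and 3 passed in neither direction. The median of the 19 was -0.48. The lowest p values were those of NMI, a partner of TRIM21 (-1.59 ± 0.08), DDX58, IFIH1 and CGAS (-0.94 ± 0.08). IRF3 was the gene that rose, by 0.38 ± 0.07. TAB2 and TAB3, targets of TRIM38, changed by -0.55 ± 0.08 and -0.58 ± 0.11, and RNF135, the ligase that acts with TRIM25 on RIG-I, by -0.29 ± 0.08. Of 20 interferon-stimulated antiviral genes other than TRIM 19 were lower (95.0%, against 26.2% of all tested genes) and 0 higher, with a median of -1.36. Among them RSAD2, IFI44L and MX2 had the lowest p values, with changes of -3.40 for RSAD2, -3.18 for IFI44L and -1.60 for MX2. TRIM22 and TRIM31 lay beyond that median, TRIM5 lay next to it at -1.36, and the other 15 TRIM genes that fell changed less. With the GC slope covariate 10 of the sensors, adaptors and kinases were lower, against 15. Over all tested genes the share lower with that covariate was 12.2%, against 26.2% without it.

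GC content moved with the groups, so TRIM genes were also set beside other genes of like GC content. In the quintile of genes with the lowest transcript GC content (26.8 to 41.3%), the median log2 fold change was -0.50 for 8 TRIM genes and -0.30 for all genes. In the middle quintile (46.2 to 52.0%) it was -0.22 for 12 TRIM genes and -0.02 for all genes, and in the highest (58.4 to 84.3%) 0.14 for 7 TRIM genes and 0.39 for all. In each of the 5 quintiles the TRIM median was under that of all genes. After removal of each library's GC and length trends, 17 TRIM genes were lower and 6 higher, with a family median of -0.13, against 23.5% lower and 23.3% higher of all genes. TRIM22, TRIM5 and TRIM25 were then at -2.10, -1.15 and -0.93.

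**Figure D5:**
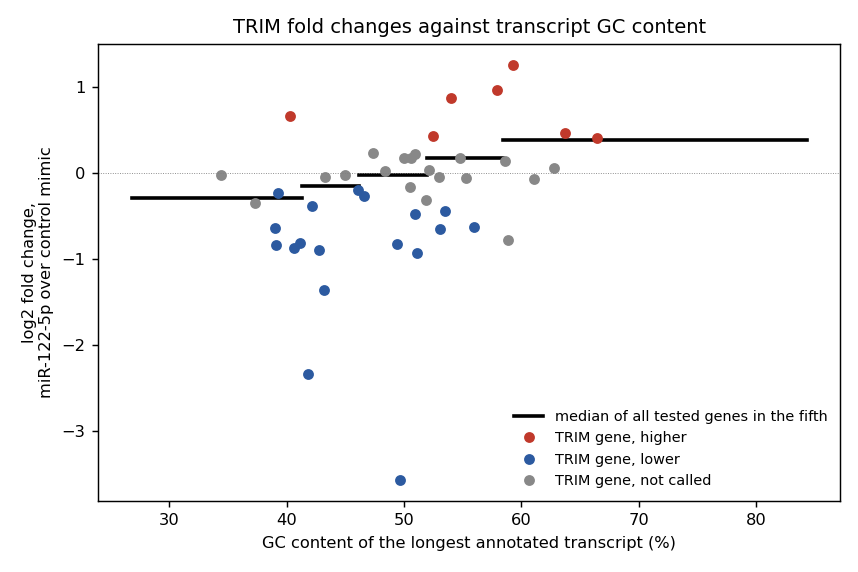
Log2 fold change of each tested TRIM gene (points) against the GC content of its longest annotated transcript, with the median of all tested genes in each quintile of GC content as black lines. The black lines climb from -0.30 to 0.39, and 7 TRIM genes lie in the highest quintile, where 3 rose and 0 fell. Of all tested genes in that quintile, 50.8% rose and 7.73% fell.

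The last question was whether TRIM transcripts carry sites for the transfected microRNA. The longest annotated 3′ UTR of each tested member was searched for matches to the seed: an 8mer (ACACTCCA), a 7mer-m8 (ACACTCC) or a 7mer-A1 (CACTCCA). A match of any class was found in 14 of 44 members (31.8%, against 23.9% of 12872 tested genes with an annotated 3′ UTR). Of these 14, 6 fell (42.9%, against 31.4% of the 3078 genes with a match) and 2 rose (14.3%, against 22.1%), and their median change was -0.05, against -0.04 for all genes with a match. Of the 30 with none, 12 fell (40.0%, against 28.0% of the 9794 genes with none) and 5 rose (16.7%, against 27.7%), and their median change was -0.18, against 0.01 for all genes with none. Of the 2 members with an 8mer, 1 rose and the other, TRIM29, was not called (0.14 ± 0.26). Of all 414 genes with an 8mer, 132 fell and 90 rose.

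An 8mer and all 7mer-m8 matches of members, whichever way the gene moved, are printed with 10 bases either side and the match in capitals, as the longer classes of match.
TRIM29 8mer: cccactggccACACTCCAttcagactcc
TRIM44 7mer-m8: agtaacagagACACTCCtgaggttgga
TRIM24 7mer-m8: ctaaacttgtACACTCCggtgtacatc
TRIM13 7mer-m8: tcttagcgacACACTCCttggtcttgc
TRIM66 7mer-m8: gctggtatcaACACTCCtgggctcaag
TRIM72 7mer-m8, first: cttttgcctcACACTCCcctcctcctt
TRIM72 7mer-m8, second: caccgtccaaACACTCCtgtgccttcc
Of these, TRIM44, TRIM24 and TRIM13 fell, TRIM72 rose, and TRIM29 and TRIM66 were not called. Of all 738 genes with a 7mer-m8 but no 8mer, 247 fell and 175 rose. TRIM44 had 1 such 7mer-m8 and 2 7mer-A1 matches and was the lowest of the members with a site, at -0.90. The printed matches start at base 180 of the 3′ UTR of TRIM29 (1139 bases), 1100 of TRIM44 (11622), 2644 of TRIM24 (5042), 3802 of TRIM13 (5287), 3809 of TRIM66 (5907), and 687 and 4555 of TRIM72 (6782). TRIM22, TRIM5, TRIM25, TRIM31 and TRIM38 had no match in their longest annotated 3′ UTR.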

How the data were processed

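The authors deposited raw read counts per gene for 12 libraries. HISAT2 2.0.5, featureCounts 1.5.0-p3 and hg38 are listed in the submitters' processing notes; strand and other settings were not given in the sources used here, so overlapping and near-identical genes are uncertain. Per the labels' protocols, 1 µg of Trizol RNA went into NEBNext Ultra libraries. Columns named nc were taken as the control mimic by name and number. All 58735 identifiers matched GENCODE 29, which gave symbols, lengths and 3′ UTRs; RefSeq gave promoters and the microRNA.

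In R 4.3.3, 15471 genes passed filterByExpr and were tested with edgeR 4.0.16 (TMM factors, quasi-likelihood, Benjamini-Hochberg, threshold 0.05). CPM used the TMM factors. A prior count of 2 entered log2 CPM. Alternatives were DESeq2 1.42.0, limma-voom (limma 3.58.1), other scalings, filters and a threshold of 0.01, GC and length splines (4 degrees of freedom), a GC slope covariate, a replicate block and libraries left out. Members, lists and alternatives were chosen with earlier results of these data known; domain and pathway lists came from general knowledge. Any member may be named; per-library values are given for the 6 largest falls and 4 largest rises, TRIM14, TRIM21, TRIM25, TRIM27, TRIM28, TRIM38, TRIM56 and the 3 highest by TPM, and for TRIM45 by a later choice. Outside genes are up to 4 of lowest p in each list described and the 4 TRIM proteins with other symbols; IRF3, TAB2, TAB3, RNF135, the cell markers named and the neighbouring genes were chosen after their values were seen. Some items are not reported here.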

Additional observations from a re-analysis of the deposited data

Results flagged for a closer look

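In 6 of 90 sets of 6 libraries (45 members in each group), 1 library lay far from the other 5 by Dixon's criterion, where chance flags about 1 set in 20. TRIM45 was lowest in miR-122-5p library 6, at 0.169 CPM against 0.586 to 0.738 in the other 5. TRIM39 was lowest in miR-122-5p library 2, at 2.42 CPM against 2.90 to 3.08 in the other 5. In control libraries, TRIM2 was highest in library 6, at 3.44 CPM against 1.20 to 1.75 in the other 5, and TRIM16L was highest in the same library, at 0.929 CPM against 0.333 to 0.530. TRIM41 was lowest in control library 1, at 19.5 CPM against 28.4 to 31.9, and TRIM4 was lowest in control library 4, at 16.2 CPM against 20.7 to 23.1.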

How the results depend on the processing

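Of the 25 TRIM calls, 14 held in the same direction in all 22 refits (12 lower, 2 higher). The called total was 16 with the GC slope covariate, with 2 higher, against 25 and 7, while over all genes the called share was 19.4% (7.22% higher, 12.2% lower), against 50.5%; the median moved to -0.047 with no low-count filter and -0.172 with the filter at 1 CPM. Those medians cover 45 members with no low-count filter and 42 at 1 CPM, against 44 in the main fit. The cause of the lower called total was not tested. With 1 library left out, 22 to 27 were called. After the GC and length correction TRIM46 was called lower (-0.31), and TRIM13 (0.087) and TRIM47 (-0.15) turned direction; with the covariate TRIM58 (0.16) and TRIM13 (0.23) did. Without control libraries 1 and 6 together, 23 were called. Numbers did not pair the libraries (correlations of same-numbered libraries -0.105 to 0.066; 1 of 6 correlated best with its own number); with the replicate block 24 were called, and TRIM58 was not (-0.79, adjusted p = 0.0553). Depth limits TRIM31, TRIM45, TRIM72, TRIM2 and TRIM58, and also TRIM62 among the members not called. The motif without its last base, GAAANNGAA, was in the same number of TRIM genes with a window (8 of 33), against 9.86% of all genes; taking any annotated 3′ UTR, 17 members held a seed match, against 14.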
